A study of Mus musculus with 14 samples.

Results

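Trichostatin A (TSA), an inhibitor of histone deacetylases, was added before late vitamin C (VC) in 3 somatic cell nuclear transfer (SCNT) embryos of the mouse, and these embryos, called TSA+VC here, were compared with the 2 embryos that received VC(8-15 h) without TSA. They make up 5 of the 14 single embryos of the series, and the groups were taken from the sample titles. Of 25650 RefSeq transcript entries in the files, the 6705 with at least 1 RPKM (read counts per kilobase of the length used for the entry, relative to library size) in at least 2 of the 5 embryos were tested. All embryos were made from cumulus cells of B6D2F1 females fused with enucleated oocytes, were activated for 6 h with strontium chloride and cytochalasin B, and were cultured in mKSOM with deionized bovine serum albumin. TSA was used at 50 nM from 0 to 8 h and VC at 10 µg/ml from 8 to 15 h after the commencement of activation, and each library was made from 1 whole embryo at the two-cell stage, collected at 28 h. The paper counts the 28 h from egg activation and the labels from nuclear transfer. The comparison asks what TSA adds to the RNA of embryos that all received late VC. It also draws on 3 TSA(0-8 h) and 3 untreated control embryos, which give the TSA difference without VC.

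Histone deacetylases remove acetyl groups from lysines of histone tails. Their inhibition by TSA raises histone acetylation, a mark of open chromatin, and is widely used to help a transferred somatic nucleus regain an embryonic state. VC keeps iron in the reduced form that dioxygenases such as the TET and JmjC demethylases need to work on DNA and histones. In the mouse, maternal RNA stored in the oocyte is degraded at the two-cell stage while the embryonic genome is switched on, so RNA at this stage holds both.

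The reads counted per library were 4343837, 7772139 and 12277567 in TSA+VC replicates 1 to 3, and 9862594 and 6572802 in VC(8-15 h) replicates 1 and 2, and 3 reads on a transcript of 1 kb corresponded to 0.244 to 0.691 RPKM. Entries at 1 RPKM or more numbered 5489, 5539 and 5720 in the TSA+VC embryos, against 6342 in VC(8-15 h) replicate 1 and 3322 in replicate 2. The group means were 5583 ± 122 (SD, n = 3) and 4832 ± 2135 (SD, n = 2), and they differed by 751 with p = 0.8 in a two-sided exact permutation test, in which 5 embryos cannot give a p below 0.1. The VC(8-15 h) embryos thus lay on either side of all 3 TSA+VC embryos, and 3808 entries reached 1 RPKM in VC(8-15 h) replicate 1 but not in replicate 2, against 788 the other way round. The 9 markers of the two-cell embryo summed to 332, 568 and 423 RPKM with TSA and 273 and 1174 RPKM without, and the 10 oocyte markers to 568, 374 and 434 RPKM with TSA and 889 and 634 RPKM without. Of the 12 markers of cumulus and granulosa cells, the donor cell type, 6 were at 0 in all 5 embryos, among them Has2, Ptgs2 and Ptx3, and the list summed to 2.13, 63.6 and 45.5 RPKM with TSA and 1.55 and 0.0759 RPKM without. Nearly all of the sum with TSA came from Amhr2, the receptor of anti-Müllerian hormone, which was at 2.13, 63.4 and 45.5 RPKM with TSA and at 0 in both VC(8-15 h) embryos. Spearman's rank correlation over the 6705 entries was 0.304 to 0.354 between embryos of the same group and 0.276 to 0.396 between embryos of different groups.

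Of the 6705 entries, 7 rose and 1 fell with TSA at a Benjamini-Hochberg adjusted p under 0.05 in limma, which is 0.104% and 0.0149% of those tested. At an unadjusted p under 0.05 there were 200 higher (2.98%) and 86 lower (1.28%). Every TSA+VC embryo was above both VC(8-15 h) embryos in 806 entries (12.0%) and below both in 422 (6.29%). Only 10 splits of 5 embryos into groups of 3 and 2 exist. A lack of overlap in an entry is therefore weak by itself, and these counts were not tested. The 8 called entries belong to 7 genes, which are Srsf5 with 2 entries, Arhgap1, Dclk2, Omt2a, Larp4 and Eif4a1, all upregulated, and Mt2, downregulated. These genes are known for splicing (Srsf5), the control of small GTPases (Arhgap1), microtubules (Dclk2), RNA binding and translation (Larp4 and Eif4a1) and metal binding (Mt2), and Omt2a is an oocyte-expressed gene.

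The largest log2 difference of the called entries was that of Arhgap1, a GTPase-activating protein. Its entry NM_001145902 was at 713, 879.7 and 573 RPKM in the TSA+VC embryos and at 0 and 1.13 RPKM in the VC(8-15 h) embryos, which rests on 418, 923 and 949 reads against 0 and 1. The log2(RPKM+1) difference was 8.93 ± 1.44 (SE; adjusted p = 2.0e-06 in limma). This SE, like the others of this comparison, comes from a spread fitted over entries and not from the entry's own embryos. The gene lies on chromosome 2 from 91490017 to 91512483 (mm9). All 3 embryos with TSA were high and both without were near 0, and so were the 3 TSA(0-8 h) embryos, at 0, 1.9 and 1.89 RPKM, and the 3 control embryos, at 0, 0 and 0.545 RPKM. The second entry of the gene, NM_146124, was at 161, 11.3 and 25.3 RPKM with TSA and at 14.1 and 296 RPKM without, where the groups overlapped.

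Srsf5, a splicing factor of the SR family (chromosome 12, 82046491 to 82051494), had the smallest p. The entry NM_001079694 was at 1402, 999.6 and 3156 RPKM with TSA and at 512 and 9.9 RPKM without, a log2 difference of 4.46 ± 0.62 (SE; adjusted p = 4.78e-09 in limma). The groups did not overlap, but VC(8-15 h) replicate 1 lay much closer to the embryos with TSA than to replicate 2. The entry NM_001079695 held nearly the same reads, 1029, 1328, 6549, 855 and 11 in the order above against 1029, 1313, 6549, 854 and 11, so that the 2 calls are 1 observation. The third entry, NM_009159, was at 333, 194 and 595.8 RPKM with TSA and at 174 and 950.2 RPKM without. Summed over its 3 entries, Srsf5 was at 2538, 1773 and 5560.2 RPKM with TSA and at 981 and 966 RPKM without.

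Dclk2, a doublecortin-like kinase that binds microtubules (chromosome 3, 86590073 to 86724803), was at 1131, 479 and 252 RPKM with TSA in its entry NM_001195500 and at 6.6 and 22.5 RPKM without. The log2 difference was 5.27 ± 1.10 (SE; adjusted p = 0.0029 in limma), and the lowest embryo with TSA was well above both without. The 3 embryos with TSA alone and the 3 controls lay between 0.503 and 67.1 RPKM, below all 3 TSA+VC embryos. The longest entry of the gene, NM_027539, gave 154, 20.4 and 109.6 RPKM with TSA and 129.8 and 188 RPKM without.

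Eif4a1, the RNA helicase of the cap-binding complex that starts translation (chromosome 11, 69480438 to 69485925), was at 301, 74.7 and 743 RPKM with TSA in its entry NM_144958 and at 3.27 and 0.223 RPKM without, a log2 difference of 6.81 ± 1.69 (SE; adjusted p = 0.0474 in limma). Its other entry, NM_001159375, was at 111, 213 and 359.8 RPKM with TSA and at 191 and 331 RPKM without. Larp4, a protein that binds the poly(A) tail of mRNA (chromosome 15, 99800505 to 99846782), was at 567, 86.7 and 629.6 RPKM with TSA in its entry NM_001024526 and at 9.54 and 0 RPKM without, a log2 difference of 6.60 ± 1.54 (SE; adjusted p = 0.0165 in limma). Its other entry, NM_001080948, overlapped, at 56.3, 76.0 and 364 RPKM with TSA and at 157 and 1.37 RPKM without. Both VC(8-15 h) embryos were low for these entries of Eif4a1 and Larp4, and TSA+VC replicate 2 was the lowest of the 3 with TSA. These entries were not low in all embryos without VC, since Larp4 reached 154 and 359.7 RPKM in 2 of the 3 controls and Eif4a1 21.8 to 215 RPKM with TSA alone.

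Omt2a (chromosome 9, 78159779 to 78162604) was at 1226, 488 and 1485 RPKM with TSA in its entry NM_001164523 and at 419.9 and 26.9 RPKM without, a log2 difference of 3.15 ± 0.67 (SE; adjusted p = 0.00327 in limma). The lowest embryo with TSA was close to VC(8-15 h) replicate 1. Its other entry, NM_001111286, ranged from 313 to 703 RPKM with TSA and stood at 84.7 and 1257 RPKM without. Mt2, a metallothionein that binds zinc and copper (chromosome 8, 96696518 to 96697467), was at 668, 407 and 1.76 RPKM with TSA and at 316 and 3634 RPKM without, a log2 difference of -3.56 ± 0.82 (SE; adjusted p = 0.0165 in limma). Its groups overlap, and it is named because it passed the threshold, after its values were seen: VC(8-15 h) replicate 2 was high, and TSA+VC replicate 3 was near 0.

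**Figure D1:**
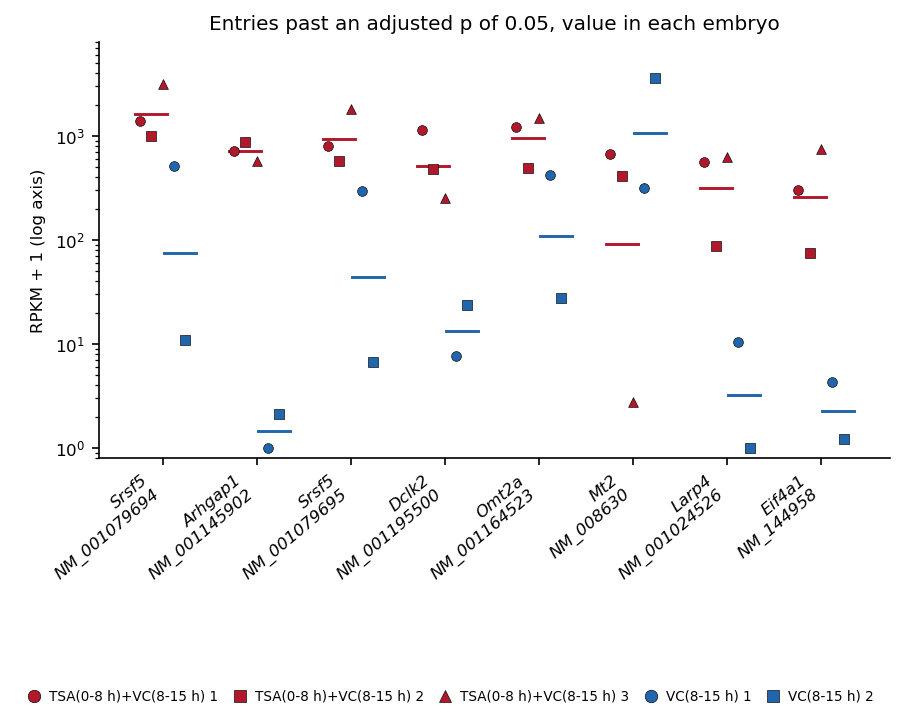
Level (RPKM + 1, log axis) of the 8 entries past an adjusted p of 0.05 in each embryo, red for TSA+VC and blue for VC(8-15 h), with the symbol shape giving the replicate and the bars the mean of log2(RPKM+1) of each group. The groups are separate for all but Mt2, and the VC(8-15 h) embryos lie far apart for Srsf5, Omt2a and Mt2.

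The adjusted p-values and the SEs of this comparison rest on a spread shared between entries. With 3 residual degrees of freedom, limma set the prior degrees of freedom to infinity, so that each entry was judged against the spread fitted for its mean level and not its own. The SD of log2 values within groups was above the fitted one for 5 of the 8 called entries: 2.37 against 0.68 and 2.34 against 0.85 for the Srsf5 entries, 1.74 against 0.73 for Omt2a, 3.86 against 0.90 for Mt2 and 1.91 against 1.68 for Larp4. It was below it for Arhgap1 (0.51 against 1.58), Dclk2 (1.11 against 1.21) and Eif4a1 (1.54 against 1.85). Without the trend, 0 entries passed in either direction.

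The 7 upregulated entries belong to 6 genes that each have 2 or 3 entries in the files, and the lengths behind the RPKM values of the called entries, recovered from the values, were 135 to 682 bases. For Arhgap1 the length was 135 bases in the called entry and 3086 in the other. Which bases of a transcript these short lengths cover is not given in the sources used here, so the RPKM of such an entry is not to be read as the level of the whole transcript. Genes with 1 entry supplied 4724 of the tested entries and 1 call (0.0212%), and genes with 2 or more supplied 1916 tested entries and 7 calls (0.365%). When all entries of a gene were summed, none of the 7 called genes passed. The summed log2 difference was 3.53 ± 0.87 (SE; adjusted p = 0.0796 in limma) for Arhgap1, 4.55 ± 1.15 (adjusted p = 0.0841) for Larp4, -3.56 ± 0.93 (adjusted p = 0.0973) for Mt2, 1.59 ± 0.45 (adjusted p = 0.219) for Srsf5, and 0.85 to 1.00 (adjusted p = 0.919 each) for Dclk2, Omt2a and Eif4a1. Of 6173 genes tested on their sums, 2 rose and 1 fell. Usp33, a deubiquitinating enzyme, was at 97.5, 1962 and 1859 RPKM with TSA and 25.6 and 20.3 RPKM without (log2 difference 4.90 ± 1.03, SE; adjusted p = 0.0116 in limma). Kif20a, a kinesin of cytokinesis, was at 1031, 36.5 and 3587 RPKM with TSA and 12.8 and 21.2 RPKM without (4.88 ± 1.15; adjusted p = 0.0416 in limma). Plekhb1, a pleckstrin homology domain protein, was at 0, 2 and 75.7 RPKM with TSA and 730.2 and 1372 RPKM without (-7.35 ± 1.64; adjusted p = 0.0218 in limma). These 3 genes were named after their values were seen, and the groups did not overlap in any of them. Short entries weighed in these sums as well: 1825 and 1774 RPKM of Usp33 in TSA+VC replicates 2 and 3 came from its entry NM_001076676 of 91 bases, and Kif20a counted the same 347 and 3510 reads of TSA+VC replicates 1 and 3 in 2 entries.

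The promoter windows of Arhgap1, Dclk2 and Eif4a1 are shown because these are the called genes whose own spread was below the fitted one. The windows reach from 250 bases before to 50 bases after an annotated start (RefSeq, GRCm38.p6), and the sequences are printed 5′ to 3′ on the strand of the gene. Arhgap1 has 2 windows. Capitals mark the motifs found, each looked for on both strands. The CCAAT box carries its own letters. The GC box was searched as GGGCGG in every window. For the TATA box the search used TATAAA instead, and no motif overlaps a different one in these windows.
Arhgap1, chr2:91649868-91650167, plus strand: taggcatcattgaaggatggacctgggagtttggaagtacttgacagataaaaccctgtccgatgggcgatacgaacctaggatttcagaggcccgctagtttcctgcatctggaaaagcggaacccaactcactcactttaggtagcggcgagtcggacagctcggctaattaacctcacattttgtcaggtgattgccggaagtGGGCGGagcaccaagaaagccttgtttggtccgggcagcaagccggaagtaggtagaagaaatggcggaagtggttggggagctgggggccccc
Arhgap1, chr2:91652958-91653257, plus strand: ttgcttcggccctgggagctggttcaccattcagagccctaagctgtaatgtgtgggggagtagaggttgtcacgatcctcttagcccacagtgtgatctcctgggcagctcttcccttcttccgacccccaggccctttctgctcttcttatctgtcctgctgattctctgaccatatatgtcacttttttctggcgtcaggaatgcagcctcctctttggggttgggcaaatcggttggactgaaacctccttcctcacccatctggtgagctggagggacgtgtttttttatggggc
Dclk2, chr3:86920835-86921134, minus strand: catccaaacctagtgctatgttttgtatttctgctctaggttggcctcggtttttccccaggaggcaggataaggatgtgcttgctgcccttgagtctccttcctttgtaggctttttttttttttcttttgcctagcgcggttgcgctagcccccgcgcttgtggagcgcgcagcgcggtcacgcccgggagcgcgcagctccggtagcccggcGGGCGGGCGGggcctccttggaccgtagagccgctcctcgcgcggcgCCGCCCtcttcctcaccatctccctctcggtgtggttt
Eif4a1, chr11:69672374-69672673, minus strand: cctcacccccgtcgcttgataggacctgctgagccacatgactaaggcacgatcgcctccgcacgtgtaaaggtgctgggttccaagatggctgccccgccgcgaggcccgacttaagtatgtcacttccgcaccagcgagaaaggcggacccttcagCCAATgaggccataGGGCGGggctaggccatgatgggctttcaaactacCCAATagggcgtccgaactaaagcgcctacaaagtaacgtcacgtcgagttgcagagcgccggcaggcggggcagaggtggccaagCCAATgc
The first Arhgap1 window held 1 GC box, the second none of the motifs, the Dclk2 window 3 GC boxes, of which 2 share bases, and the Eif4a1 window 1 GC box and 3 CCAAT boxes. Over all 32851 windows of the table, 35.7% held a GC box, 37.4% a CCAAT box and 13.6% a TATA box. The 7 called genes had 8 windows, of which 5 held a GC box, 1 a CCAAT box and 0 a TATA box. The files do not tell which start a given entry used.

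Among entries whose groups did not overlap, the 12 genes with the smallest p in each direction were examined whether or not they passed the threshold. Beyond the called genes, the higher ones were Slc25a44, a mitochondrial carrier of branched-chain amino acids, Zbed3, a zinc finger protein of the Wnt pathway, Slc3a2, the heavy chain of an amino acid transporter, Polr2f, a subunit shared by the RNA polymerases, Rplp1, a protein of the ribosomal stalk, and Pcgf5, a Polycomb subunit. Slc25a44 was at 244, 117 and 458 RPKM with TSA in the entry NM_001145876 and at 1.11 and 0.416 RPKM without (log2 difference 7.10 ± 1.79, SE; adjusted p = 0.0526 in limma). Its other entry, NM_178696, was at 108, 56.7 and 216 RPKM with TSA and at 46.6 and 173 RPKM without, where the groups overlapped, and the sum of both differed by 1.91 on the log2 scale. Zbed3 was at 2022, 1579 and 1253 RPKM with TSA and at 687 and 309 RPKM without (1.78 ± 0.46; adjusted p = 0.0526 in limma). Zbed3 had 1 entry with 3852 to 29133 reads, and its log2 difference was 0.47 after median-ratio scaling and 1.21 without VC(8-15 h) replicate 2. Slc3a2 was low in both entries without TSA: NM_001161413 stood at 351, 114 and 244 RPKM with TSA against 5.22 and 0.382 RPKM without, and NM_008577 at 113, 35.4 and 76.3 RPKM against 5.4 and 0.177 RPKM. Polr2f was at 441, 301 and 237 RPKM against 178 and 0.585 RPKM. Rplp1 was at 583, 92.6 and 322 RPKM against 88.4 and 0 RPKM. Pcgf5 was at 183, 494 and 346 RPKM against 135 and 1.92 RPKM. For these last 3 genes VC(8-15 h) replicate 1 was below the lowest embryo with TSA and replicate 2 near 0, and their adjusted p-values were 0.143, 0.161 and 0.198.

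The 12 genes of the lower group had adjusted p-values from 0.0526 (Psd3) to 0.74 (Sf3a2 and Idh3g), and in all of them VC(8-15 h) replicate 2 was the highest embryo. Psd3, a guanine nucleotide exchange factor of ARF6, was at 0, 0.932 and 0 RPKM with TSA in its entry NM_030263 and at 304 and 1562 RPKM without (log2 difference -9.11 ± 2.33, SE). Its other entry, NM_027626, lay the other way, at 14.9, 5.9 and 3.69 RPKM with TSA and at 0.374 and 0.248 RPKM without, again with no overlap. Ssrp1, a subunit of the histone chaperone FACT, was at 0 in all 3 embryos with TSA in its entry NM_001136081 and at 253 and 264 RPKM without, at least 47.0-fold lower when the mean of the latter is set against the mean floor of 3 reads per library. Its other entry, NM_182990, was at 0.403, 14.1 and 143 RPKM with TSA and at 49.5 and 88.6 RPKM without. Ogdh, a subunit of the 2-oxoglutarate dehydrogenase of the citric acid cycle, was likewise at 0 in all 3 embryos with TSA in its entry NM_001252282 and at 135 and 282 RPKM without, at least 115.9-fold lower on the same floor. Its other entry above 0, NM_001252288, overlapped, at 1.04, 1.43 and 12.1 RPKM with TSA and at 17.2 and 2.03 RPKM without. The Ogdh entry NM_001252282 was also at or near 0 in the TSA(0-8 h) and control embryos, where the highest of the 6 was 0.595 RPKM.

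Of the other lower genes, Idh3g, a subunit of a citric acid cycle dehydrogenase, was at 0.173, 5.61 and 0.428 RPKM with TSA and at 78.9 and 513 RPKM without. Dnm1l, the GTPase of mitochondrial fission, was at 8.04, 0.817 and 0.517 RPKM with TSA in its entry NM_001025947 and at 136 and 2227 RPKM without (adjusted p = 0.0898 in limma). Its entry NM_001276341 overlapped, at 11.1, 0.505 and 35.7 RPKM with TSA and at 12.6 and 0 RPKM without, and NM_001276340 was at 32.4 RPKM in TSA+VC replicate 3 and at 0 in the other 4 embryos. Chchd2, a protein of the mitochondrial intermembrane space, was at 24.5, 2.4 and 3.4 RPKM with TSA and at 191 and 619 RPKM without. Ubb, a polyubiquitin gene, was at 22.5, 5.74 and 2.1 RPKM with TSA and at 251 and 327 RPKM without, so that here the VC(8-15 h) embryos lay close together. Psmb1, a proteasome subunit, was at 175, 2.73 and 0 RPKM with TSA and at 219 and 1117 RPKM without, and its replicate 1 embryos nearly met. The remaining genes were Selenow, a selenoprotein, Plp2, a membrane protein, Amdhd2, an enzyme of amino sugar metabolism, and Sf3a2, a spliceosome subunit, which ranged from 0 to 7.28 RPKM with TSA and from 67.5 to 1212 RPKM without.

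**Figure D2:**
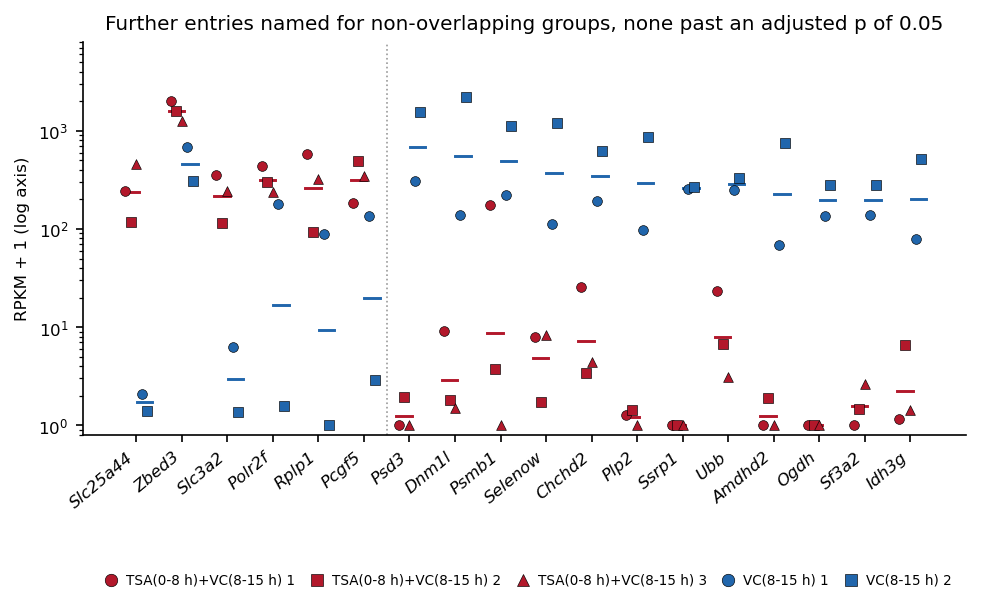
Level (RPKM + 1, log axis) of the 6 further higher genes (left of the dotted line) and the 12 lower genes (right) in each embryo, with colours, symbols and bars for TSA+VC and VC(8-15 h) as in the plot of the called entries. Among the lower genes the embryos with TSA lie at 24.5 RPKM or below, except 1 of 175 RPKM for Psmb1, and the VC(8-15 h) embryos between 67.5 and 2227 RPKM.

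The direction of the comparison as a whole depended on which VC(8-15 h) embryo was used. The median log2 difference of all 6705 entries was 0.49 with both embryos, -0.27 without VC(8-15 h) replicate 2 and 1.72 without replicate 1. It was 0.04 after quantile normalization and -0.17 after median-ratio scaling, in which VC(8-15 h) replicate 2 had a factor of 0.214 and the other 4 embryos 1.46 to 1.75. The 200 higher against 86 lower entries at an unadjusted p under 0.05 became 133 against 158 without VC(8-15 h) replicate 2, 145 against 171 after quantile normalization and 60 against 310 after median-ratio scaling. Entries without overlap numbered 1238 higher (18.5%) and 1723 lower (25.7%) against VC(8-15 h) replicate 1 alone, and 2582 higher (38.5%) and 1202 lower (17.9%) against replicate 2 alone. At the adjusted threshold, 3 rose and 0 fell without VC(8-15 h) replicate 2, 24 rose and 1 fell without replicate 1, and 0 passed without TSA+VC replicate 3, so the counts of 7 and 1 rest on each of these embryos. Of the 8 called entries, 2 were among the 3 calls without VC(8-15 h) replicate 2, and 6 among the 25 calls without replicate 1.

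**Figure D3:**
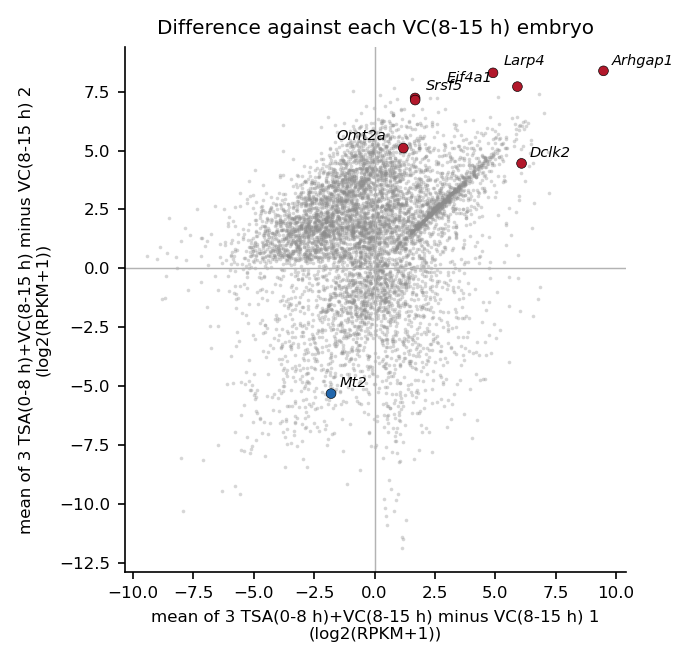
Each point is 1 of the 6705 entries, placed by the mean log2(RPKM+1) of the 3 TSA+VC embryos minus that of VC(8-15 h) replicate 1 (horizontal) and replicate 2 (vertical), with the called entries in red (higher) and blue (lower). The median is -0.27 on the horizontal and 1.72 on the vertical axis, and Arhgap1, Larp4, Eif4a1 and Dclk2 are high on both.

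Among the embryos used here, libraries with the same replicate number shared a number in their library identifiers, which is called the pool here. Pools 1 and 2 each held 1 embryo of either group. What this number stands for is not given in the sources used here. The median log2 difference was -0.10 within pool 1 and 0.78 within pool 2. Only 3014 entries (45.0% of those tested) had the same sign in both pools, 1875 higher and 1139 lower. With the replicate number, and so the pool, as a block, 4 entries rose and 0 fell at the adjusted threshold in limma, 3 of them among the 8 called above. The 12 genes named as higher ranged from 0.44 to 9.48 in pool 1 and from 2.35 to 8.69 in pool 2, and those named as lower from -8.25 to -0.32 and from -10.26 to -5.60. The sign of these 24 follows from their choice and was not tested.

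The known members of pathways that bear on deacetylation, VC and the two-cell stage were taken from 18 lists with 297 tested genes, and those named beyond the most abundant 3 of a list or an unadjusted p under 0.05 were chosen after their values were seen. Of their 326 entries, only Omt2a passed the adjusted threshold in limma. At an unadjusted p under 0.05, 14 entries were higher and 5 lower, and limma-voom on the recovered reads called 0. Entries without overlap numbered 41 higher (12.6%) and 21 lower (6.44%), close to the 12.0% and 6.29% of all entries tested. These shares of all entries are the ones to set beside the counts of each list below.

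Of the 11 classical histone deacetylases, the targets of TSA, 5 were tested and none passed (0 at an unadjusted p under 0.05). Hdac1 was at 5.49, 123 and 14.1 RPKM with TSA and at 45.5 and 18.1 RPKM without. Hdac2 was at 1.26, 2.18 and 0.122 RPKM with TSA and at 9.01 and 239 RPKM without. Hdac9 was at 58.5, 0.0419 and 11.6 RPKM with TSA and at 0 in both VC(8-15 h) embryos. Hdac1 overlapped between groups, and Hdac2 and Hdac9 lay apart in opposite directions. For Hdac9 this rests on 781, 1 and 438 reads with TSA against 0 in both VC(8-15 h) embryos. The 1 read of TSA+VC replicate 2 is below the floor of 3 reads, so Hdac9 is not clearly separate. Hdac6 and Hdac10 overlapped, with ranges of 0.0401 to 153 RPKM and 0 to 53.2 RPKM over the 5 embryos.

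Of the opposing enzymes, the histone acetyltransferases, 7 entries of 6 genes were tested, 0 passed (0 at an unadjusted p under 0.05) and 3 were below both VC(8-15 h) embryos. Over all entries tested, 12.0% were above both and 6.29% below both. Kat6b was at 15.3, 19.9 and 26.2 RPKM with TSA and at 51.3 and 199.6 RPKM without. Kat6a was at 41.2, 42.5 and 18.4 RPKM against 112 and 75.5 RPKM, and Crebbp at 89.5, 58.2 and 104 RPKM against 120.0 and 122 RPKM. Ep300, the partner of Crebbp, was at 126, 52.9 and 105 RPKM with TSA and at 57 and 7.27 RPKM without, where the groups overlapped. The median log2 difference of the list was -0.14, against 0.49 over all entries, and -0.98 and -0.58 without VC(8-15 h) replicates 2 and 1. The corepressor complexes that carry deacetylases had 5 of 24 entries above both VC(8-15 h) embryos (Mbd3, Gatad2a, Kdm1a, Mta2 and Rbbp7) and 0 below, with a median of 0.98, or -0.47 without VC(8-15 h) replicate 2. Mta2, a NuRD subunit, was at 297, 232 and 289.8 RPKM with TSA and at 159.8 and 108 RPKM without. Sin3a was at 2299.9, 149 and 0 RPKM with TSA and at 0.994 and 0 RPKM without in its entry NM_001110350, with TSA+VC replicate 3 as low as the VC(8-15 h) embryos. Ncor1 was at 1.62, 13.8 and 250.4 RPKM with TSA and at 118 and 407 RPKM without. Of 30 entries of bromodomain proteins, which bind acetylated lysines, 3 were above and 4 below both VC(8-15 h) embryos. Brd9 was at 65.7, 59.2 and 35.5 RPKM with TSA and at 1.05 and 0.316 RPKM without (unadjusted p = 0.042, adjusted p = 0.924 in limma), while Brd1 and Brd2 were at 203 to 249 and 143 to 391 RPKM over all 5 embryos. Genes known to respond to deacetylase inhibitors were uneven: Cdkn1a was at 1964, 2.86 and 0 RPKM with TSA and 2.25 and 3.38 RPKM without, H1f0 at 123, 39.4 and 98.8 RPKM with TSA and 117 and 67.5 RPKM without, and Txnip at 8.64, 0.92 and 48.5 RPKM with TSA and 0.181 and 1.41 RPKM without. The groups overlapped in all 3.

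Of the dioxygenases for which VC is a cofactor, 28 entries of 26 genes were tested, 0 passed (0 at an unadjusted p under 0.05) and 1 was above both VC(8-15 h) embryos, with a median of 0.36 against 0.49 over all entries. That entry was Egln1, the prolyl hydroxylase of hypoxia-inducible factors, at 61.5, 64.6 and 62.2 RPKM with TSA and at 18.3 and 1.51 RPKM without. The H3K9 demethylase Kdm3b was at 12.9, 39.3 and 7.8 RPKM with TSA and at 3.42 and 33.2 RPKM without, with overlap. Kdm3a was at 0, 367 and 299 RPKM with TSA and at 0 and 7.05 RPKM without. Kdm5b was at 109, 195 and 77.2 RPKM with TSA and at 132 and 29.3 RPKM without. Of the 11 antioxidant enzyme entries, Gpx1, a glutathione peroxidase, was at 57.3, 139.6 and 72.6 RPKM with TSA and at 0.194 and 0.146 RPKM without (log2 difference 6.18 ± 2.34, SE; unadjusted p = 0.0084, adjusted p = 0.754 in limma), and no other entry of the list was free of overlap. Prdx2, a peroxiredoxin, was at 93.1, 268 and 212 RPKM with TSA and at 783 and 13.9 RPKM without. The glucose transporter Slc2a3, which also takes up oxidized VC, was at 28, 23 and 25.9 RPKM with TSA and at 1.95 and 0.0769 RPKM without.

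The writers and readers of H3K9 methylation, a barrier to reprogramming, had 3 of 10 entries above both VC(8-15 h) embryos and 0 below. Over all entries tested, the shares were 12.0% and 6.29%. The median of the list was 1.86. It was 1.55 without VC(8-15 h) replicate 2 and 1.95 without replicate 1, where all entries had -0.27 and 1.72, and 1.12 after quantile normalization and 1.16 after median-ratio scaling. The 3 were Trim28 (172, 118 and 110.4 RPKM with TSA against 70.6 and 2.35 RPKM), Suv39h2 (52.7, 44.1 and 48.3 RPKM against 13.6 and 0.0711 RPKM) and Setdb1 (26.6, 34.5 and 18.7 RPKM against 7.24 and 0.0659 RPKM). Trim28, the corepressor that recruits Setdb1, had an unadjusted p of 0.037 (adjusted p = 0.924 in limma), and 0 of the list passed. The levels of Suv39h2 with TSA spanned only 44.1 to 52.7 RPKM, whereas Cbx3, an HP1 protein, was at 62.6, 109 and 77.1 RPKM with TSA and at 68.1 and 486 RPKM without. Of 10 entries for DNA methylation, 1 of the 2 of Uhrf1, the partner of the maintenance methyltransferase, was below both VC(8-15 h) embryos, at 0, 0.688 and 0 RPKM with TSA and at 1.63 and 685 RPKM without in NM_001111079, whereas NM_010931 overlapped. Dppa3, which protects the maternal genome from demethylation, was at 754, 352 and 18 RPKM with TSA and at 319 and 146 RPKM without.

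Genes of the two-cell stage had 5 of 22 entries above both VC(8-15 h) embryos and 1 below, where 12.0% and 6.29% of all entries tested were. Their median was 1.34, and 0 passed in limma (1 at an unadjusted p under 0.05). The median was 0.76 without VC(8-15 h) replicate 2 and 1.56 without replicate 1, the latter below the 1.72 of all entries, and 0.77 after quantile normalization and 0.42 after median-ratio scaling. The 5 were Usp17lb, Fgf1, Pramel6, Zscan4f and Zscan4c, and the other was Tcstv3. Of the Zscan4 genes, a burst of which marks this stage, Zscan4c was at 5.56, 1.02 and 0.0716 RPKM with TSA and at 0.0445 and 0 RPKM without, and Zscan4f at 6.8, 1.34 and 0.401 RPKM with TSA and at 0 in both without. The Zscan4c values of 0.0716 and 0.0445 RPKM are below the lowest value of 3 reads on 1 kb, 0.244 RPKM, so its separation is weak. Zscan4d overlapped, at 6.59, 1.36 and 0.0409 RPKM with TSA and at 0 and 9.32 RPKM without. The Zscan4 genes are near-identical copies, so reads may be divided among them. Tcstv3 was at 2.36, 42.6 and 52.3 RPKM with TSA and at 101 and 239.8 RPKM without. Sp110, with an unadjusted p of 7.9e-05 (adjusted p = 0.0526 in limma), was at 1525, 1269 and 103 RPKM with TSA and at 1103 and 2.19 RPKM without, with overlap. Tcstv1 was at 229, 202 and 27.1 RPKM with TSA and at 2.28 and 218 RPKM without.

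Oocyte genes had 5 of 29 entries above both VC(8-15 h) embryos (Omt2a, Tcl1, Btg4 and the 2 copies of Oog1) and 3 below (Bmp15, Oog2 and an entry of Eif4e1b), with a median of 0.46, near that of all entries. Of all entries tested, 12.0% were above both and 6.29% below both. Bmp15, a growth factor of the oocyte, was at 259.6, 246 and 220.5 RPKM with TSA and at 462 and 467 RPKM without. Btg4, the adaptor through which maternal mRNA is deadenylated, was at 451, 221 and 318 RPKM with TSA and at 169 and 178 RPKM without. In both genes the VC(8-15 h) embryos lay close together, and their unadjusted p-values in limma were 0.204 and 0.291. Among pluripotency and early embryo factors, 0 of 11 entries passed (0 at an unadjusted p under 0.05) and Pou5f1 and Tfcp2l1 were below both VC(8-15 h) embryos. Pou5f1 was at 0, 22.3 and 23.7 RPKM with TSA and at 28.9 and 175 RPKM without, while Yap1 was at 264 to 659.7 RPKM over all 5 embryos and overlapped.

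The RNA polymerase II machinery had 5 of 28 entries above both VC(8-15 h) embryos and 2 below. Besides Polr2f, Polr2c, a core subunit, was at 221, 59 and 127 RPKM with TSA and at 2.51 and 2.7 RPKM without (log2 difference 5.05 ± 1.87, SE; adjusted p = 0.722 in limma). Gtf2f2, a subunit of TFIIF, was at 141, 12.9 and 62.6 RPKM with TSA and at 0.415 and 0.104 RPKM without. Gtf2a1, a subunit of TFIIA, was at 153, 176 and 121 RPKM with TSA and at 248 and 253 RPKM without. Of 69 entries of cytoplasmic ribosomal proteins, 7 were above and 3 below both VC(8-15 h) embryos, where 12.0% and 6.29% of all entries tested were. Their median was 0.00. Rps4x was at 98.5, 110.5 and 80.1 RPKM with TSA and at 0.116 and 2.26 RPKM without, and Rpl26 at 67, 87.4 and 24.9 RPKM against 1.68 and 0.28 RPKM. Rpl6 lay the other way, at 13.3, 33.1 and 17.7 RPKM with TSA and at 67.6 and 514 RPKM without. Replication-dependent histone genes had 0 of 17 entries without overlap in either direction. For H2ac18 and H2ac19, near-identical copies, the difference was 0.32 in both. Apoptosis genes had 3 of 16 entries above (Aifm1, Apaf1 and Diablo) and 1 below both VC(8-15 h) embryos (Birc5), and none passed in limma (0 at an unadjusted p under 0.05). Rps27 and Rpl31 ranked among the 3 most abundant ribosomal protein genes by the mean of the 5 embryos, and VC(8-15 h) replicate 2 was highest in both. Rps27 was at 0, 13.8 and 0 RPKM with TSA and at 0 and 4085 RPKM without, so its rank rests on that embryo. Rpl31 was at 0, 499 and 211 RPKM with TSA and at 0 and 750.3 RPKM without. VC(8-15 h) replicate 2 was the lowest embryo for Mcl1, Casp2 and Bcl2l1, the most abundant apoptosis genes, at 0.436, 0.0879 and 0.321 RPKM.

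**Figure D4:**
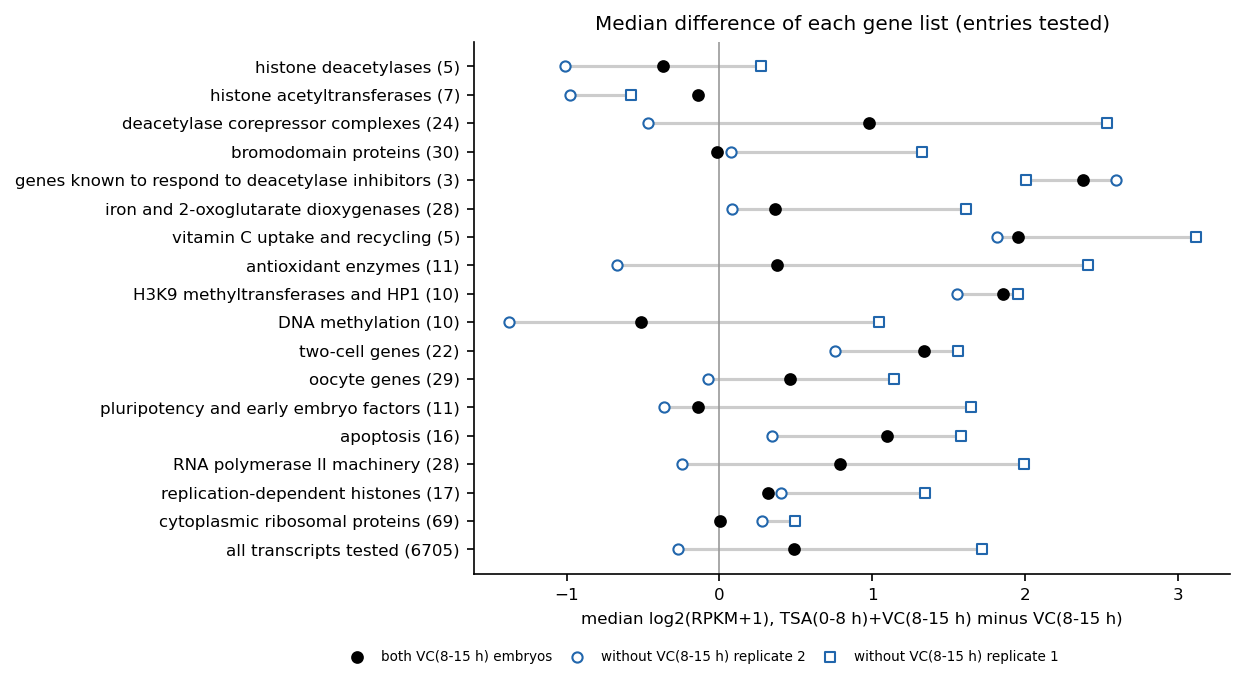
Median log2(RPKM+1) difference, TSA+VC minus VC(8-15 h), of the 17 lists with at least 3 entries tested and of all 6705 entries, with both VC(8-15 h) embryos (black) and without either 1 (open blue). The medians of H3K9 methylation and two-cell genes are above 0 in all 3 settings. So are those of genes responding to deacetylase inhibitors, VC uptake, dioxygenases, apoptosis, replication-dependent histones and ribosomal proteins. Those of corepressors, antioxidant enzymes, DNA methylation and the polymerase II machinery are among those that change sign.

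The TSA difference with late VC was then set beside that without VC, TSA(0-8 h) minus control, in a fit of 11 embryos in which the groups share no embryo. The interaction, the first difference minus the second, passed for 0 entries in either direction in limma (smallest adjusted p = 0.612), with 209 higher (3.12%) and 92 lower (1.37%) at an unadjusted p under 0.05. TSA without VC gave 2 upregulated and 1 downregulated entries (0.0298% and 0.0149%), with 2.21% higher and 2.33% lower at an unadjusted p under 0.05. Across the 6705 entries, the TSA differences with and without VC had Pearson's r = 0.03 and a Spearman's rank correlation of 0.02. Genes are not independent replicates, so these are descriptions. Of the 806 entries above both VC(8-15 h) embryos, 36 (4.47%) also had all TSA(0-8 h) embryos above all controls, against 207 (3.09%) of all entries. Of the 422 entries below, 30 (7.11%) had all TSA(0-8 h) embryos below all controls, against 355 (5.29%) of all entries. Among the named genes, 7 of 12 higher and 8 of 12 lower had the same sign without VC, where 43.6% of all entries were above 0 and 55.5% below.

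The 5 genes with the smallest interaction p in each direction were examined next, so the order of their groups follows in part from this choice. H2bc12, a histone H2B gene, was at 655, 885 and 826 RPKM in the controls and at 6.08, 0.672 and 12.5 RPKM with TSA alone, where it was downregulated by 7.17 on the log2 scale (adjusted p = 0.0415 in limma), but at 140.2, 10.8 and 551 RPKM in the TSA+VC embryos and 98.2 and 2 RPKM in the VC(8-15 h) embryos. Its interaction was 9.67 ± 2.26 (SE; adjusted p = 0.612 in limma). Aldoa, a glycolytic enzyme, was at 82.6, 179 and 37.6 RPKM in controls, 3.07, 1.36 and 0.113 RPKM with TSA alone, 166, 419 and 35.6 RPKM with TSA and VC and 12.8 and 1.21 RPKM with VC alone (interaction 9.88 ± 2.69; adjusted p = 0.892 in limma). Dnajc8, a cochaperone, was ordered in the same way, at 61.3 to 184 RPKM in controls, 0.46 to 14.3 RPKM with TSA alone, 54.2 to 109 RPKM with both and 0.656 to 5.83 RPKM with VC alone. For Aldoa and Dnajc8 the 4 groups fell into a high pair, control and TSA+VC, and a low pair that did not overlap with it. This pattern goes with their choice by the interaction and was not tested apart from it. Lars2 and Cops9 completed the higher side, with interactions of 4.14 ± 1.16 and 10.15 ± 2.88.

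In the lower direction, Fbxo15, an F-box protein of pluripotent cells, was upregulated by TSA alone, from 26.5, 13.7 and 4.22 RPKM in controls to 778, 635 and 182 RPKM (adjusted p = 0.0397 in limma), whereas with VC it was at 545, 81.2 and 747 RPKM with TSA and 226 and 559.5 RPKM without. All 5 embryos with VC were thus above all 3 controls. Calm2, a calmodulin gene, followed the same order, at 33.1 to 112 RPKM in controls and at 252 to 1286 RPKM in the other 8 embryos. Ninj1 was at 156, 228 and 0.0752 RPKM with TSA alone, 0 to 1.93 RPKM in controls, 0 to 1.94 RPKM with TSA and VC, and 85.4 and 388 RPKM with VC alone. Pebp1 and Ogdh, the last of the 5, had interactions of -9.25 ± 2.88 and -7.59 ± 2.39. The adjusted p-values of these lower 5 were all 0.892.

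**Figure D5:**
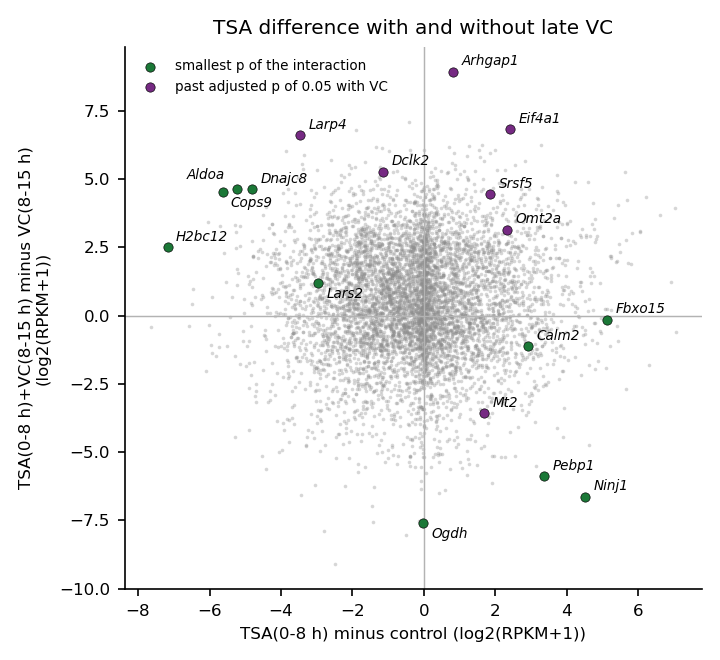
Log2(RPKM+1) difference of TSA(0-8 h) minus control (horizontal) against that of TSA+VC minus VC(8-15 h) (vertical) for the 6705 entries, with the 10 genes of smallest interaction p in green and the 7 called genes in purple. The cloud has a Pearson's r of 0.03, H2bc12 and Aldoa lie at the left and Fbxo15 and Ninj1 at the right, and Arhgap1 is high on the vertical axis and at 0.81 on the horizontal.

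At the level of presence, 1749 entries reached 1 RPKM in all 5 embryos. Of the 2963 that did so in all 3 TSA+VC embryos, 195 were below 1 RPKM in both VC(8-15 h) embryos and 16 of these were at 0 in both, while 910 were below 1 RPKM in VC(8-15 h) replicate 2 only and 109 in replicate 1 only. Of the 2534 that did so in both VC(8-15 h) embryos, 97 were below 1 RPKM in all 3 embryos with TSA and 14 of these were at 0 in all 3. With 2 of 9 µl of RNA from a single embryo entering each library and 14 and 12 cycles of PCR, a value of 0 gives no more than that no read was counted, and fewer molecules in the embryo cannot be told apart from molecules lost in making the library.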

How the data were processed

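RNA of single SCNT embryos was amplified with the Ovation Single Cell RNA-seq System and sequenced as single-end reads. According to the paper, the authors removed low-quality bases and adapters, aligned the reads to mm9 by TopHat (TopHat2 in the submitters' processing notes) and computed RPKM values from total counts and transcript length, with UCSC exons. The RPKM values were deposited per embryo for 25650 RefSeq entries, with no counts beside them. How reads shared by transcripts were divided is not given in the sources used here. Symbols came from RefSeq (25246 entries matched).

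Values were compared as log2(RPKM+1) with limma 3.58.1 (eBayes with trend, R 4.3.3) and Benjamini-Hochberg adjustment, over entries at 1 RPKM or more in at least 2 of the 5 embryos, so low genes have their differences understated by the pseudocount of 1. The study's own test used counts, so limma took its place. RPKM values are whole multiples of the value of 1 read, and whole reads were recovered for 14531 of 14532 entries above 0 in at least 2 embryos (relative tolerance 1e-06). On them limma-voom was run as an alternative. A floor is 3 reads and covers counting error only. The single-value test was an exact permutation test over embryos. The steps were tested on simulated data. Each library came from 1 embryo. Per the paper, the TSA+VC embryos came from 3 nuclear transfer experiments. For the VC(8-15 h) embryos this is not given in the sources used here. The p-values rest on the spread between embryos, which in the main comparison was fitted over entries and is not the entry's own. That spread may be technical. Mapped gene positions are those of mm9.

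The genes named were, in each direction, the 12 with the smallest p among entries without overlap between groups, the called entries, the 3 most abundant members of each list and any with an unadjusted p under 0.05 and no overlap, all Hdac genes, Kdm3b, and 5 genes in each direction of the interaction. A gene that this rule names is not reported here. The comparison, its members and the lists were chosen with earlier results of these data known. Alternatives covered the pseudocount, filter, normalization, trend, each embryo left out, the library pool, all 14 embryos, summed entries and limma-voom. Same-numbered embryos share the number in the library identifiers of the deposited files that is called the pool here. Only 2 pairs exist, and deviations from the group means correlated at 0.05 and 0.04 in them. Tables and plots were made in Python 3.11.15 with pandas 2.3.3, numpy 2.4.6, matplotlib 3.10.9 and scipy 1.17.1.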

Additional observations from a re-analysis of the deposited data

How the results depend on the processing

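Against 7 higher and 1 lower entries, the counts were 1 and 0 for entries at 1 RPKM in all embryos of either group, 2 and 1 for entries summed per gene, 1 and 2 after median-ratio scaling, 10 and 2 at a minimum of 5 RPKM, 6 and 0 with robust eBayes (chosen after seeing the data), 5 and 13 by limma-voom on recovered reads, and 0 and 0 without a filter, without the trend and with all 14 embryos, with or without the library pool. They were 10 and 4 at an adjusted p under 0.1, 64 and 21 at an unadjusted p under 0.01, and 200 and 86 at an unadjusted p under 0.05. Leaving out 1 embryo at a time gave 0 to 24 higher and 0 to 2 lower entries: 7 and 2, 4 and 1, and 0 and 0 without TSA+VC replicates 1 to 3, 24 and 1 without VC(8-15 h) replicate 1, and 3 and 0 without replicate 2. In the last 2 the lone VC(8-15 h) embryo is assumed to vary like the others. With the replicate block, 4 rose and 0 fell, 3 of them among the 8 entries called without it. None of the 18 limma-voom calls and none of the summed genes was among the called ones. The cause of these changes was not tested. The interaction gave 0 calls in the alternatives run, except that leaving out 1 embryo gave 0 to 1 higher (1 without TSA(0-8 h) replicate 3 or control replicate 1) and 0 lower. The detected-entry difference of 751 ranged from -759 without VC(8-15 h) replicate 2 to 2261 without replicate 1. Over 26 named entries, 468 values under alternatives comprised 353 on the same side of the threshold, 96 no longer past it, 19 newly past it and 0 of opposite direction. All 96 belong to the 8 called entries, and most of the 353 are uncalled entries that stayed uncalled. Each called entry stayed past the threshold in 3 (Eif4a1) to 10 (Arhgap1) of 18 alternatives.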

Other observations

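By limma-voom on the recovered reads, 5 entries had a higher and 13 a lower fitted level with TSA at an adjusted p under 0.05, and the ones described here were chosen after their values were seen. Spin1, a reader of methylated histone H3 that is abundant in the oocyte, had both its entries among the higher ones. NM_146043 was at 2293, 2234 and 2972 RPKM in the TSA+VC embryos and at 866 and 1563 RPKM in the VC(8-15 h) embryos (adjusted p = 0.0206 by limma-voom), and NM_011462 at 2246, 2125 and 1425 RPKM with TSA and at 809 and 873 RPKM without. The call of NM_011462 goes with an own SD of 10.3 on the weighted voom scale against a prior of 1.09. The groups did not overlap in either entry. Mmp19, a matrix metalloproteinase, was at 83.4, 35.1 and 18.9 RPKM with TSA and at 0 in both embryos without, and Snrpn, a small nuclear ribonucleoprotein gene imprinted in the mouse, at 76.3, 34.5 and 106 RPKM with TSA and at 0.0488 and 0 RPKM without.

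Of the lower ones, Bmi1, a subunit of Polycomb repressive complex 1, was at 346, 449 and 513.8 RPKM with TSA and at 835 and 1203 RPKM without (adjusted p = 0.0194 by limma-voom), with no overlap. Mvk, an enzyme of the mevalonate pathway, was at 0 in all 3 embryos with TSA and at 33.9 and 201 RPKM without. Dennd3, a Rab exchange factor, was at 0.0434, 0.0243 and 0.0461 RPKM with TSA and at 43.4 and 57.5 RPKM without. Ccdc6, with the smallest voom p, was counted as lower by its fitted level, but its groups overlapped and its mean RPKM was higher with TSA (1261 against 1159), at 1320, 1303 and 1159 RPKM with TSA and 1775 and 542 RPKM without, and its own SD was 10.8 against the same prior.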
